A study of Danio rerio with 24 samples.

Results

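8 genes tied to muscle protein breakdown or to the sarcomere were followed in zebrafish (Danio rerio) larvae. They were the ubiquitin ligase genes trim63a, trim63b and fbxo32, the sarcomere gene tcap, and the FOXO transcription factors foxo1a, foxo1b, foxo3a and foxo3b. They were chosen by name, with earlier results of these libraries known, out of 32520 genes in each of 2 deposited tables, and all 8 were found. Because the members were chosen by name with such results in view, their values are given as a description with no p-values of their own. Of these trim63b was listed at 0 throughout, and the other 7 were above 0 in at least 1 library.

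When muscle breaks down its own protein, ligases mark sarcomere proteins with ubiquitin for the proteasome. The trim63 genes encode MuRF1, a RING-finger ligase that sits on the sarcomere and, in mice, targets thick-filament proteins. The fbxo32 gene encodes atrogin-1, the F-box protein that brings substrates to an SCF ligase made of Skp1, cullin 1 and Rbx1. In mammals both are switched on by FOXO factors, which insulin and IGF signalling through Akt keeps out of the nucleus. The tcap gene encodes telethonin, a small protein that caps the end of titin at the Z-disc, where sarcomeres join. Zebrafish carry a and b copies of several of these genes from a duplication of the genome in the teleost lineage.

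The RNA came from whole wild-type embryos collected at 120 hours post fertilisation (hpf), as 4 libraries in each of 6 groups. Exposure from 0.75 hpf was to perfluorohexane sulfonate (PFHxS), a persistent fluorinated surfactant, at 0 (vehicle control), 0.0025 or 25 µM, and every group including the controls received 0.1% dimethyl sulfoxide. Each dose was combined with 24 h of darkness or with 14 h of light and 10 h of darkness a day. The photoperiod was read from the sample titles, since the treatment text speaks of dark conditions for every sample. The dark and the cycle libraries form separate library series with separately scaled tables, so levels in darkness and under the cycle are set side by side with no test, and photoperiod cannot be told apart from library series. This limit holds too for every difference between photoperiods in the effect of a dose, where only a constant offset cancels. The number of larvae in a library and the clutches are not given, and the spread between libraries of a group may be technical. RNA of the whole body was measured, so fewer muscle cells and less RNA per cell cannot be told apart.

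Depth was 8.44 to 14.5 M fragments in dark libraries and 10.1 to 18.5 M in cycle libraries, and no pair of libraries was identical. Levels are FPKM as the authors scaled them, fragments per length of gene and per size of library. Skeletal muscle markers were abundant in every group. Their FPKM, summed over 54 gene entries, was 49174 to 52400 in dark controls and 44348 to 52135 at 25 µM in darkness, and 57521 to 68523 and 47862 to 63362 in the corresponding cycle groups. The log2 difference of these sums was −0.07 in darkness and −0.13 under the cycle (two-sided exact permutation test, adjusted p = 0.441 for both, over 12 marker comparisons). With 4 libraries against 4 the smallest p this test can give is 0.0286 before adjustment. After adjustment over the 12 comparisons such a p passes only if most of them reach it. Of these markers 1, pvalb3, was at 0 in all 24 libraries.

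In larvae kept in darkness, 25 µM PFHxS went with several-fold higher levels of both detected ligase genes and of tcap, and with about doubled foxo1a. The fold against dark controls was 7.91 for trim63a, 9.59 for fbxo32, 9.12 for tcap and 2.04 for foxo1a. The more abundant factors foxo3a and foxo3b moved little, with folds of 0.846 and 1.02. Folds are on the log2(FPKM + 0.1) scale, which understates the change of low genes. In this comparison 21.8% of all tested genes were called. Below, groups of libraries are described as overlapping or not. The share of all genes whose groups do not overlap is not given, so nothing is read from such a separation.

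**Figure D1:**
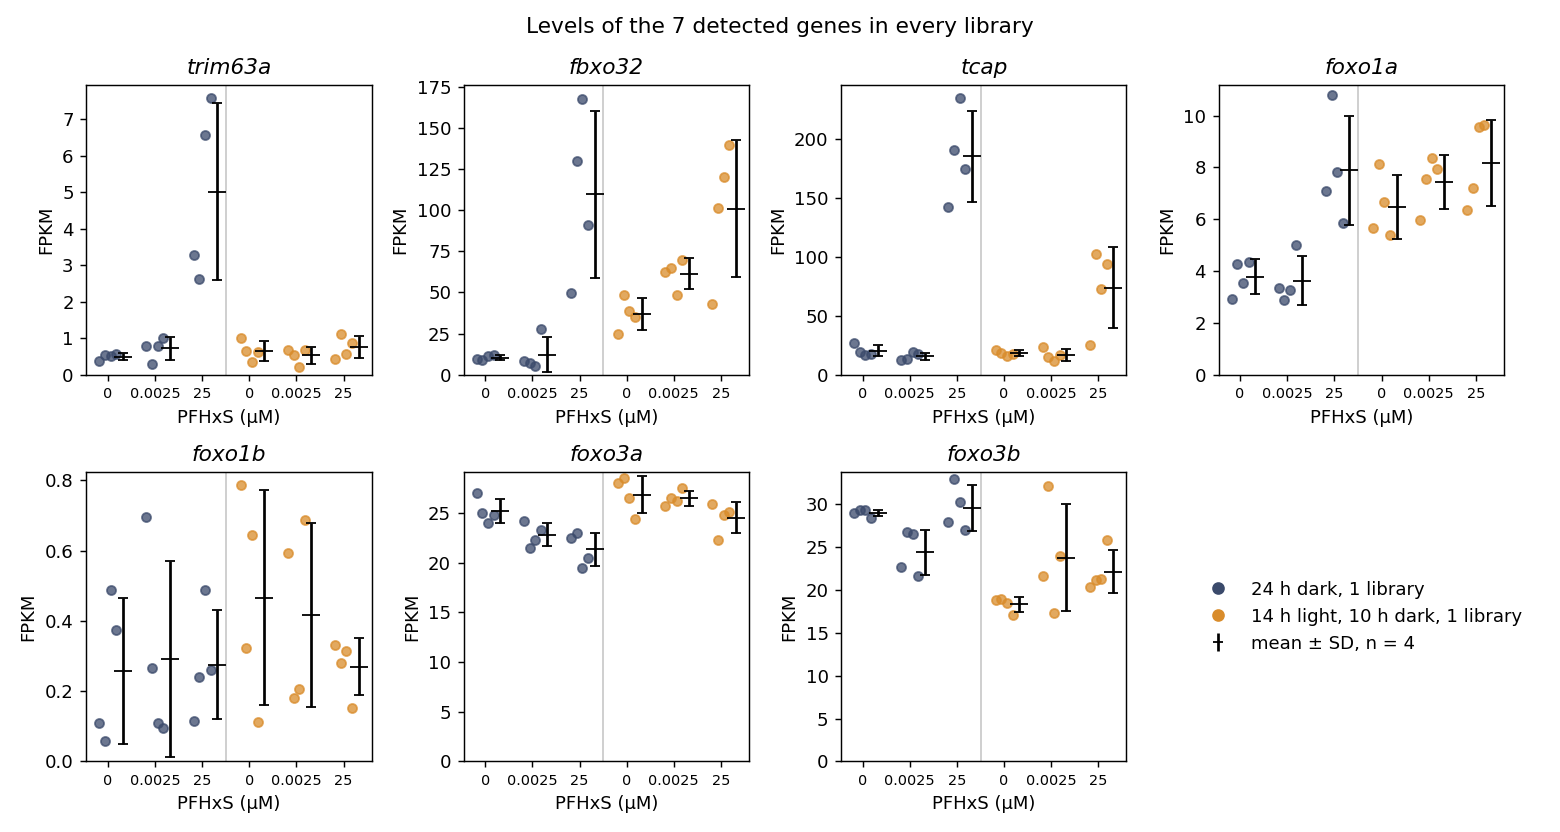
FPKM of the 7 detected genes (y axis, 1 panel a gene, each with its own scale) against the PFHxS dose (x axis, µM) in darkness (blue, left) and under the light-dark cycle (orange, right); points are libraries, and bars are the mean ± SD of 4. The 25 µM dark libraries of trim63a, fbxo32, tcap and foxo1a lie above all dark controls, while trim63a stays at or below 1.11 FPKM in all cycle libraries. The share of all genes that lie apart in this way is not given.

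The MuRF1 gene trim63a (chromosome 6, 15651977 to 15653494, minus strand, identifier ENSDARG00000028027) was barely detected in dark controls. It stood at 0.362, 0.537, 0.506 and 0.571 FPKM in the 4 dark controls, which is 5 to 8 fragments a library. At 25 µM in darkness it reached 3.29, 2.61, 6.56 and 7.56 FPKM, or 43 to 109 fragments. All 4 exposed libraries lay above every control, with replicates 3 and 4 well above 1 and 2. The log2 fold change was 2.98 ± 0.39 (SE, 95% interval 2.15 to 3.82), and 1.92 with a pseudocount of 1 FPKM in place of 0.1, which weighs more on so low a gene. At 0.0025 µM in darkness the values were 0.783, 0.284, 0.796 and 1.01 FPKM, a log2 fold change of 0.38 ± 0.39 with groups that overlap.

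Under the light-dark cycle trim63a showed no such rise. Its levels were 1.003, 0.642, 0.343 and 0.634 FPKM in controls, 0.669, 0.550, 0.205 and 0.686 at 0.0025 µM, and 0.440, 1.11, 0.575 and 0.857 at 25 µM. The 3 cycle groups overlap throughout, and the log2 fold change at 25 µM was 0.17 ± 0.41 (95% interval −0.71 to 1.05). The effect of 25 µM was larger in darkness than under the cycle by 2.82 ± 0.57 on the log2 scale (95% interval 1.64 to 3.99). It was the 1 of 7 tested members called for this difference at an adjusted p of 0.05 (limma, Benjamini-Hochberg over all tested genes), where 1.16% of all 20145 genes were called. As the member was chosen with such results known, nothing is read from the call, which was lost, at a difference of 2.90, with limma-voom on fragment counts. The share of those called that were higher in darkness was not stable: 0.973% of genes were called higher in darkness and 0.189% lower (196 and 38 genes), but 121 and 108 when libraries were scaled to total fragments.

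The second MuRF1 gene, trim63b (chromosome 9, 23900703 to 23902215, plus strand, ENSDARG00000086685), was listed at 0 in all 24 libraries. Its interval lies whole within that of cops8 on the same strand (23895711 to 23906205). The cops8 gene encodes a subunit of the COP9 signalosome, a complex that most cells use, and it was also listed at 0 in all 24 libraries. For this pair the value 0 is therefore given as listed, with no statement on expression. In all, 4831 genes, 14.9% of the tables, were at 0 in every library.

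The atrogin-1 gene fbxo32 (chromosome 16, 25259313 to 25272633, plus strand, ENSDARG00000040277) was expressed well above trim63a in every library. In darkness it stood at 9.71, 8.67, 11.2 and 12.01 FPKM in controls and at 49.9, 130, 168 and 91.3 at 25 µM. The groups do not overlap, and the exposed libraries spread more widely than the controls. The log2 fold change was 3.26 ± 0.46 (95% interval 2.28 to 4.25). At 0.0025 µM in darkness the values were 8.53, 6.96, 5.09 and 27.8 FPKM, so 3 libraries lay below every control and replicate 4 stood well above them. The log2 fold change at this dose was −0.10 ± 0.46, and −0.61 without that replicate.

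Under the cycle fbxo32 started from a higher level, on the scale of the other table. Controls held 24.8, 48.4, 38.8 and 34.9 FPKM, the 0.0025 µM libraries 62.8, 65.1, 48.2 and 69.7, and the 25 µM libraries 43.1, 101, 120 and 140. Replicate 1 at 25 µM fell within the control range, the other 3 above it, and at 0.0025 µM the lowest library fell within the control range by a small margin. The log2 fold change was 1.37 ± 0.31 at 25 µM (95% interval 0.69 to 2.06) and 0.77 ± 0.31 at 0.0025 µM (95% interval 0.087 to 1.45), of which the first passed the threshold narrowly and the second did not. The 25 µM call was lost in 14 of 18 alternative settings, with the log2 fold change between 1.17 and 1.74. The difference between photoperiods in the 25 µM effect, 1.89 ± 0.60 (95% interval 0.65 to 3.13), did not pass over all genes. Without replicate 1 of the dark 25 µM group, the lowest of its 4, it passed at 2.22.

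The telethonin gene tcap (chromosome 3, 21240594 to 21242460, minus strand, ENSDARG00000007344) had the smallest SE in darkness of the 3 genes with log2 fold changes near 3. Its dark levels were 27.1, 19.6, 17.0 and 17.5 FPKM in controls, 12.4, 13.1, 19.1 and 17.3 at 0.0025 µM, and 142, 191, 235 and 174 at 25 µM. Every 25 µM library lay far above every dark control, while the 0.0025 µM group overlapped the controls. The log2 fold change was 3.19 ± 0.19 at 25 µM (95% interval 2.79 to 3.59) and −0.38 ± 0.19 at 0.0025 µM. Under the cycle tcap held 21.3, 18.3, 15.5 and 17.7 FPKM in controls, 23.8, 15.0, 11.4 and 17.0 at 0.0025 µM, and 25.5, 103, 73.0 and 93.5 at 25 µM. The cycle groups at 0 and 25 µM do not overlap, but replicate 1 at 25 µM, the library that was also lowest for fbxo32, lay just above the controls.

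For tcap under the cycle the log2 fold change at 25 µM was 1.84 ± 0.37 (95% interval 1.05 to 2.64), and 2.29 without that library. The call at 25 µM was lost in 9 of 18 alternative settings, with the value between 1.62 and 2.29. The effect of 25 µM was larger in darkness by 1.35 ± 0.44, which did not pass over all genes. In dark controls tcap was 1.45 to 2.79 times fbxo32, and at 25 µM in darkness 1.40 to 2.85 times, as levels per length, and these ranges overlap. At 0.0025 µM in darkness the ratio ran from 0.622 to 3.75. In cycle controls the ratio was 0.378 to 0.860, at 0.0025 µM 0.230 to 0.379, and at 25 µM 0.591 to 1.01.

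**Figure D2:**
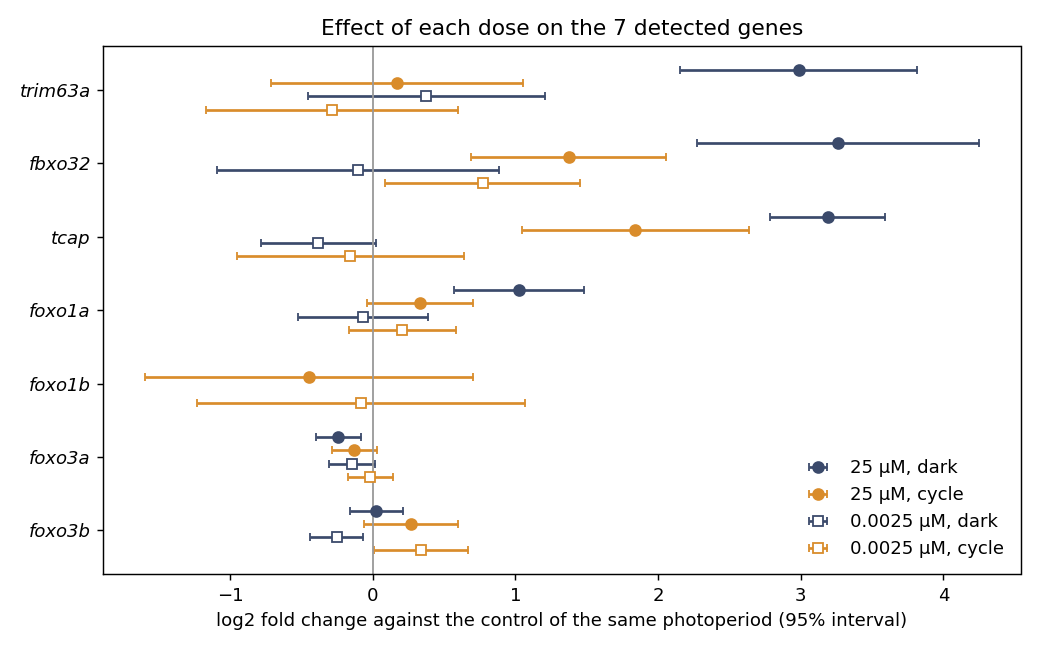
Log2 fold change of the 7 detected genes against the controls of the same photoperiod (x axis), with 95% intervals from limma; circles are 25 µM, open squares 0.0025 µM, blue darkness and orange the cycle. At 25 µM in darkness trim63a, fbxo32 and tcap lie near 3, and foxo1b has no dark value because it did not pass the expression filter there.

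Among the FOXO genes, foxo1a (chromosome 15, 3284416 to 3379041, plus strand, ENSDARG00000099555), one of the factors that drive atrogin-1 and MuRF1 in mammalian muscle, was the one of the 4 members called higher at 25 µM in darkness. It held 2.93, 4.27, 3.53 and 4.36 FPKM in dark controls and 7.10, 10.8, 7.84 and 5.85 at 25 µM. The groups do not overlap, and the log2 fold change was 1.03 ± 0.21 (95% interval 0.57 to 1.48). At 0.0025 µM in darkness it held 3.36, 2.87, 3.27 and 5.01 FPKM, among and around the controls. Under the cycle the controls already held 5.68, 8.14, 6.67 and 5.39 FPKM, and the 25 µM libraries 6.37, 7.20, 9.56 and 9.63. The cycle groups overlap, at a log2 fold change of 0.33 ± 0.17, and the difference between photoperiods, 0.70 ± 0.28, did not pass over all genes.

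Its copy foxo1b (chromosome 10, 31809226 to 31861474, plus strand, ENSDARG00000061549) was near the limit of detection, with 1 to 24 fragments a library. Its levels ran from 0.0576 to 0.786 FPKM over all 24 libraries, and group means from 0.257 to 0.466. At this depth no difference was detectable: the 95% interval at 25 µM under the cycle ran from −1.60 to 0.70, and in darkness the gene was not tested.

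The copies of foxo3, whose active form induces atrogin-1 in mouse muscle cells, were the most abundant of the 4 FOXO genes in every group. The foxo3a gene (chromosome 17, 6793001 to 6810785, plus strand, ENSDARG00000023058) held 26.97, 25.0, 24.0 and 24.8 FPKM in dark controls and 22.5, 23.0, 19.4 and 20.4 at 25 µM. All exposed dark libraries lay below all controls, by a small margin, at a log2 fold change of −0.24 ± 0.074 (95% interval −0.40 to −0.080). This call was lost in 6 of 18 alternative settings. Under the cycle foxo3a held 24.4 to 28.5 FPKM in controls and 22.3 to 25.9 at 25 µM, groups that overlap (log2 fold change −0.13 ± 0.072).

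The foxo3b gene (chromosome 20, 32286765 to 32332736, minus strand, ENSDARG00000042904) was flat between dark controls and 25 µM. It held 28.9, 29.3, 29.3 and 28.5 FPKM in dark controls, 22.7, 26.7, 26.6 and 21.7 at 0.0025 µM, and 27.9, 33.0, 30.2 and 27.03 at 25 µM. The 0.0025 µM libraries all lay below the controls (log2 fold change −0.25 ± 0.086), which did not pass over all genes, and the 25 µM libraries spanned them (0.02 ± 0.086). Under the cycle it held 17.1 to 18.9 FPKM in controls, 17.4 to 32.2 at 0.0025 µM and 20.4 to 25.8 at 25 µM. The cycle 25 µM libraries lay above the controls without passing over all genes (0.27 ± 0.15), and at 0.0025 µM the log2 fold change was 0.34 ± 0.15. An antisense gene, BX927123.1, overlaps foxo3b on the other strand, with a mean of 0.0608 FPKM over all 24 libraries.

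The FOXO genes outside the 8 were foxo4, foxo6a and foxo6b. In darkness foxo4 rose from 20.9, 19.0, 20.4 and 24.1 FPKM to 23.2, 32.7, 34.1 and 25.6 at 25 µM, groups that overlap, with a log2 fold change of 0.44 ± 0.12 (limma adjusted p = 0.0216). That call was lost in 5 of 18 alternative settings. Under the cycle foxo4 had a log2 fold change of 0.24 ± 0.099 (limma adjusted p = 0.259), and foxo6b one of −0.16 ± 0.22 (limma adjusted p = 0.784). The foxo6a gene stayed below 1 FPKM in every library.

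Per length and summed over these 7 genes, FOXO transcripts came to 82.5 ± 2.1 FPKM (SD, n = 4) in dark controls, 71.7 ± 0.87 at 0.0025 µM and 90.7 ± 10.2 at 25 µM. The make-up of this sum also differed between doses. The foxo1a share was 4.57% ± 0.81 in dark controls and 8.61% ± 1.37 at 25 µM, and the foxo3a share 30.6% ± 1.7 and 23.7% ± 2.9. In the same groups the foxo4 share was 25.5% ± 1.9 and 31.7% ± 3.3, and the foxo3b share 35.2% ± 1.4 and 32.6% ± 0.83. In cycle controls foxo1a already made up 8.56% ± 1.05 of 75.2 ± 5.9 FPKM, and foxo3b 24.4% ± 1.0 against 35.2% ± 1.4 in dark controls, 2 tables scaled separately. Shares within a library do not depend on its scaling, though a difference between the library series can still move them.

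**Figure D3:**
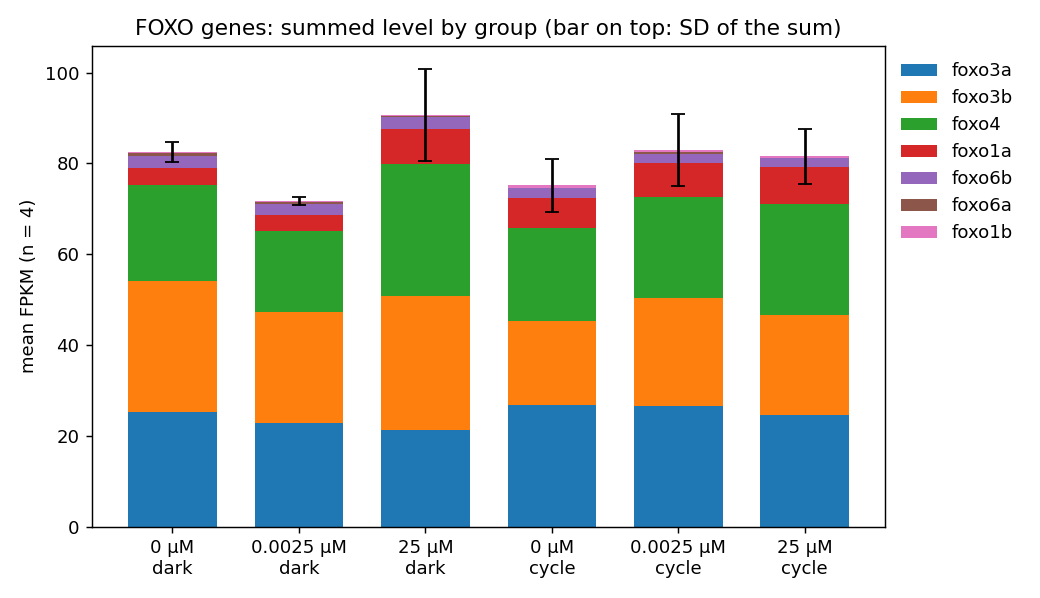
Mean FPKM of the 7 FOXO genes (y axis, stacked, n = 4) in the 6 groups (x axis, dose and photoperiod); the black bar is the SD of the summed level. The genes foxo3a, foxo3b, foxo4 and foxo1a, make up nearly all of each sum, and the red foxo1a segment is 3.77 FPKM in dark controls and 7.89 at 25 µM in darkness.

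The order of levels changed with dose. In dark controls it ran foxo3b (29.0 FPKM), foxo3a (25.2), tcap (20.3), fbxo32 (10.4), foxo1a (3.77), trim63a (0.494) and foxo1b (0.257), and neighbours overlapped in their ranges for foxo3a and tcap and for trim63a and foxo1b. At 25 µM in darkness it ran tcap (185), fbxo32 (110), foxo3b (29.6), foxo3a (21.3), foxo1a (7.89), trim63a (5.01) and foxo1b (0.276). There tcap and fbxo32 overlapped, as did foxo1a and trim63a. Under the cycle fbxo32 had the highest mean in every group, with means of 36.7, 61.4 and 101 FPKM at 0, 0.0025 and 25 µM, and tcap came after foxo3a and foxo3b in controls (18.2) and next to fbxo32 at 25 µM (73.6). Ranges overlapped for fbxo32 and foxo3a and for foxo3b and tcap in cycle controls, and at 25 µM for fbxo32 and tcap, for tcap and foxo3a and for foxo3a and foxo3b.

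Counted over the 8, 6 could be tested in darkness and 7 under the cycle. At 25 µM in darkness 4 were called higher and 1 lower, where 21.8% of all 19058 tested genes were called, 12.2% higher and 9.6% lower. At 25 µM under the cycle 2 were called higher and none lower, where 1.73% of 18917 genes were called, 1.1% higher and 0.629% lower. Since the members were chosen by name with these contrasts known, nothing is read from these shares. At 0.0025 µM 0 members were called in either photoperiod by limma or by limma-voom, where limma called 0.021% of genes in darkness (4 genes) and 0% under the cycle. At an unadjusted p under 0.05 the counts at that dose in darkness were 1 of 6 tested members and 1417 of 19058 genes. Under the cycle they were 2 of 7 tested members and 1029 of 18917 genes. A threshold of 0.05 without adjustment flags many genes by chance, and nothing is read from these counts. The 2 doses are compared with the same controls.

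Set against the lower dose directly, 25 µM in darkness gave 5 of 6 tested members called higher. Of all tested genes 20.9% were called there, 11.4% higher and 9.42% lower. The 5 members were trim63a (2.61 ± 0.39), fbxo32 (3.36 ± 0.46), tcap (3.57 ± 0.19), foxo1a (1.097 ± 0.21) and foxo3b (0.28 ± 0.086), the last lost in 6 of 18 alternative settings. Under the cycle 1 of 7 tested members, tcap (2.00 ± 0.37), was called higher at 25 than at 0.0025 µM. Of all tested genes 2.02% were called there, 1.4% higher and 0.624% lower. In that comparison fbxo32 had a log2 fold change of 0.60 ± 0.31. The effect of 0.0025 µM differed between photoperiods for 0 members by limma, where 0.00496% of 20145 genes were called (1 gene). With limma-voom that gene was not called either. At an unadjusted p under 0.05 the counts were 1 of 7 tested members and 1608 of 20145 genes, from which nothing is read.

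Some libraries were at the end of their group's range for several genes. Replicate 4 of the dark 0.0025 µM group, with 27.8 FPKM of fbxo32 against 5.09 to 8.53 in the other 3, also had the highest foxo1a (5.01) and, by a small margin, trim63a (1.01) of its group, but not the highest tcap. It likewise led its group in pdk2b (114 FPKM against 23.5 to 49.7), a pyruvate dehydrogenase kinase, and in igfbp1b (35.1 against 8.96 to 15.9), an IGF binding protein. Replicate 1 of the cycle 25 µM group was lowest in fbxo32, tcap, trim63a and foxo1a, and also in pdk2b (59.0 against 247 to 416) and igfbp1b (20.5 against 64.2 to 111). It was highest of its group in foxo3a (25.9) and foxo1b (0.331). The igfbp1b gene is among those named below as nearest to fbxo32 over these same libraries. That it goes with fbxo32 here is therefore no separate support. What sets these libraries apart was not tested.

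The genes whose levels across all 24 libraries were most like the ligases and tcap were sought among 12878 named genes with a mean of at least 1 FPKM in both tables. Likeness was the root mean square difference, over libraries, of log2(FPKM + 0.1) after subtracting the control mean of the photoperiod. For fbxo32 the nearest was psme4a at 0.28, which encodes PA200, an activator that caps the proteasome. In darkness psme4a went from 3.72 ± 0.45 FPKM (SD) to 42.2 ± 16.8 at 25 µM, and under the cycle from 9.27 ± 2.62 to 27.1 ± 14.3. Next to fbxo32 came cyp24a1 (0.44), a vitamin D 24-hydroxylase, and igfbp1b (0.52). For tcap they were pnocb (0.43), a prepronociceptin gene, and the small heat shock protein genes hspb11 (0.44) and hspb6 (0.46). For trim63a they were the neuropeptide gene cart3 (0.52), pyya (0.57), a peptide YY gene, and rtn4rl2a (0.60), on a gene whose own counts are low. Under the cycle trim63a itself did not reach the level asked of these candidates. At 25 µM under the cycle cart3, pyya and rtn4rl2a lay 0.87, 0.69 and 0.46 above the control mean on the log2 scale, against 0.17 for trim63a. By comparison fbxo32 itself lay 1.58, tcap 1.57 and trim63a 1.33 from the control mean on this scale.

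**Figure D4:**
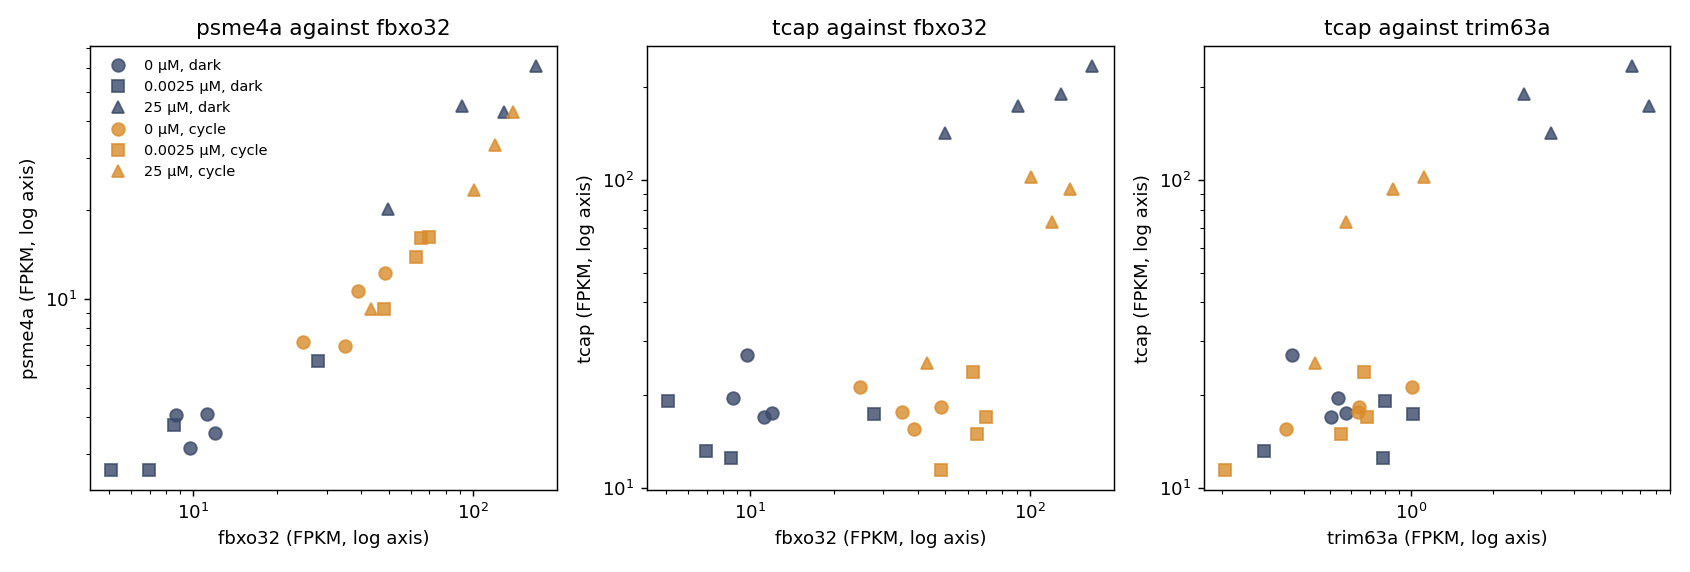
Levels of pairs of genes in the 24 libraries (FPKM, both axes logarithmic); symbols give the dose, blue darkness and orange the cycle. In the left panel psme4a varies with fbxo32, which is fixed by its choice as the nearest gene over these same libraries. In the middle panel fbxo32 is higher under the cycle than in darkness among controls (2 tables scaled separately) while tcap is not. In the right panel tcap is raised at 25 µM in both photoperiods and trim63a in darkness.

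Genes that act with the 8 were counted from lists, beside all tested genes, whose median log2 fold change was −0.01 at 25 µM in darkness and −0.02 under the cycle. Of all tested genes 12.2% were called higher and 9.6% lower in darkness, and 1.1% and 0.629% under the cycle. In darkness the counts of the SCF (1 of 7 higher), myostatin and activin (3 of 16 higher) and smooth muscle (1 of 9 lower) lists lie near those shares. Nothing is read from them about these 3 lists. The skeletal muscle list had 6 of 48 higher, near the share of all genes, and 9 of 48 lower, a larger share than the 9.6% over all genes. The lists, like the 8 members, were chosen with earlier results of these data known. Their counts, medians, order and p-values are therefore a description and no independent support. Adjusted p-values in the paragraphs on the lists are from limma with Benjamini-Hochberg adjustment over all tested genes. Of 14 list genes named as called under the cycle, lamp1a and pgam2 held in all 18 alternative settings and the other 12 were lost in at least 1.

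Other muscle ubiquitin ligases and their adaptors were mostly higher or unmoved at 25 µM in darkness: 12 of 31 rose, 1 fell and 18 did not pass, with a median log2 fold change of 0.30. The 1 that fell, named after its value was seen, was trim101 (−1.21 ± 0.30, adjusted p = 0.0114). The risers included both copies of MuRF2, the closest relative of MuRF1. The trim55b gene rose from 6.72 ± 1.40 FPKM (SD) to 26.4 ± 6.0, by 1.95 ± 0.20 (SE, adjusted p = 3.26e-05), and trim55a from 6.23 ± 0.47 to 11.2 ± 0.96, by 0.83 ± 0.094 (adjusted p = 7.32e-05). The Kelch adaptor klhl41a rose by 1.73 ± 0.15 (adjusted p = 9.65e-06) and the U-box ligase ube4b by 0.58 ± 0.098 (adjusted p = 0.00118). Under the cycle 1 of 31 rose, the mitochondrial ligase mul1a (0.68 ± 0.13, adjusted p = 0.0268), and none fell. The effect differed between photoperiods for trim55a (difference 1.17 ± 0.14, adjusted p = 0.000207), which under the cycle stood at 15.8 ± 1.2 FPKM (SD) in controls and 12.5 ± 1.9 at 25 µM (log2 fold change −0.34 ± 0.11, adjusted p = 0.167). It was larger in darkness for trim55b (1.40 ± 0.25, adjusted p = 0.00586) and klhl41a (1.09 ± 0.22, adjusted p = 0.0168), whose log2 fold changes under the cycle were 0.55 ± 0.14 (adjusted p = 0.0796) and 0.65 ± 0.16 (adjusted p = 0.0753). Of the partners of atrogin-1 in the SCF complex, 1 of 7 tested rose in darkness, the cullin cul1b (0.78 ± 0.13, adjusted p = 0.000871). Under the cycle none of the 7 passed, and the most abundant, skp1 and rbx1, had log2 fold changes of −0.09 ± 0.11 and −0.10 ± 0.10.

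Most genes of the proteasome, to which ubiquitinated proteins are delivered, were higher in darkness: 32 of 40 subunit and activator genes rose and none fell, with a median of 0.57. Besides psme4a (3.37 ± 0.31, adjusted p = 1.82e-05), the rises were of modest size, such as the regulatory subunits psmd11b (0.95 ± 0.13, adjusted p = 0.000292), psmd8 (0.69 ± 0.092, adjusted p = 0.000246) and psmd12 (0.68 ± 0.093, adjusted p = 0.000293). Under the cycle 0 of 40 passed, with a median of 0.19. There psme4a had a log2 fold change of 1.38 ± 0.39 (adjusted p = 0.103), and the abundant psmb4 and psmb1 values of 0.17 ± 0.11 and 0.07 ± 0.13. The difference between photoperiods passed for psmd8 (0.50 ± 0.12, adjusted p = 0.0473), a call lost in 25 of 29 alternative settings.

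Autophagy and lysosome genes, the other route of protein breakdown under FOXO control in mammals, rose in 21 of 44 cases in darkness with none lower (median 0.39). The autophagy receptor sqstm1 rose by 2.52 ± 0.29 (adjusted p = 7.49e-05), the lysosomal protease genes ctsd and ctsla by 1.09 ± 0.086 (adjusted p = 4.43e-06) and 0.83 ± 0.11 (adjusted p = 0.000262), and the mitophagy receptor bnip3lb by 0.87 ± 0.13 (adjusted p = 0.000601). Under the cycle 3 of 43 rose, namely lamp1a (0.77 ± 0.12, adjusted p = 0.0122), sqstm1 (1.43 ± 0.29, adjusted p = 0.0347) and wipi2 (0.30 ± 0.065, adjusted p = 0.0409). The effect on ctsd was larger in darkness by 0.76 ± 0.13 (adjusted p = 0.00329). Of the calpain and caspase list 1 of 10 rose and 3 fell in darkness. The riser was cast (0.55 ± 0.077, adjusted p = 0.000329), which encodes the calpain inhibitor calpastatin, and those lower were calpain genes: capns1a (−0.47 ± 0.11, adjusted p = 0.00795), capn3a (−0.24 ± 0.069, adjusted p = 0.0259) and capn2b (−0.38 ± 0.12, adjusted p = 0.0404). Under the cycle cast was the 1 of 9 that rose (0.40 ± 0.067, adjusted p = 0.0159).

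The genes listed as FOXO targets in metabolism had the highest median of the 17 lists at 25 µM in darkness. Whether FOXO factors act on these genes in the larvae was not tested. Nothing is read from this rank, since the lists were chosen with earlier results known. In darkness 12 of 14 rose and none fell, with a median of 1.28. The pyruvate dehydrogenase kinase pdk2b went from 36.7 ± 1.6 FPKM (SD) to 424 ± 128, by 3.48 ± 0.36 (SE, adjusted p = 3.69e-05), and its copy pdk2a rose by 1.28 ± 0.13 (adjusted p = 3.95e-05). The lipase inhibitor angptl4 rose by 1.28 ± 0.096 (adjusted p = 3.36e-06) and the IGF binding protein igfbp1a by 2.45 ± 0.26 (adjusted p = 4.57e-05). Under the cycle 2 of 14 rose, igfbp1b (2.14 ± 0.41, adjusted p = 0.0258) and the triglyceride lipase pnpla2 (1.16 ± 0.23, adjusted p = 0.0279), with a median of 0.60. The effect was larger in darkness for angptl4 (1.14 ± 0.16, adjusted p = 0.000842), the glucose-6-phosphatase g6pca.1 (1.25 ± 0.21, adjusted p = 0.00313) and igfbp1a (2.04 ± 0.41, adjusted p = 0.0145).

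Of targets tied to growth arrest, stress and cell death, 15 of 28 rose and 3 fell in darkness (median 0.40). Among the risers were txnipa, an inhibitor of thioredoxin and glucose uptake (1.06 ± 0.094, adjusted p = 1.19e-05), the cell death gene pmaip1 (1.77 ± 0.20, adjusted p = 7.00e-05), the anti-proliferative btg1 (0.99 ± 0.12, adjusted p = 0.000102) and the TOR inhibitor ddit4 (1.62 ± 0.21, adjusted p = 0.000161). Those lower were 2 antioxidant enzyme genes, cat (−0.52 ± 0.092, adjusted p = 0.00164) and sod1 (−0.51 ± 0.097, adjusted p = 0.00248), and txnipb (−0.41 ± 0.13, adjusted p = 0.0403). These 3 were named after their values were seen. Under the cycle 1 of 28 rose, the translation repressor eif4ebp3l (0.65 ± 0.13, adjusted p = 0.0285). The effect was larger in darkness for txnipa (1.03 ± 0.17, adjusted p = 0.00313) and higher there for pmaip1 (1.96 ± 0.42, adjusted p = 0.0227). For pmaip1 this difference exceeds its rise of 1.77 in darkness. Its log2 fold change under the cycle was therefore negative, and it was not called there.

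**Figure D5:**
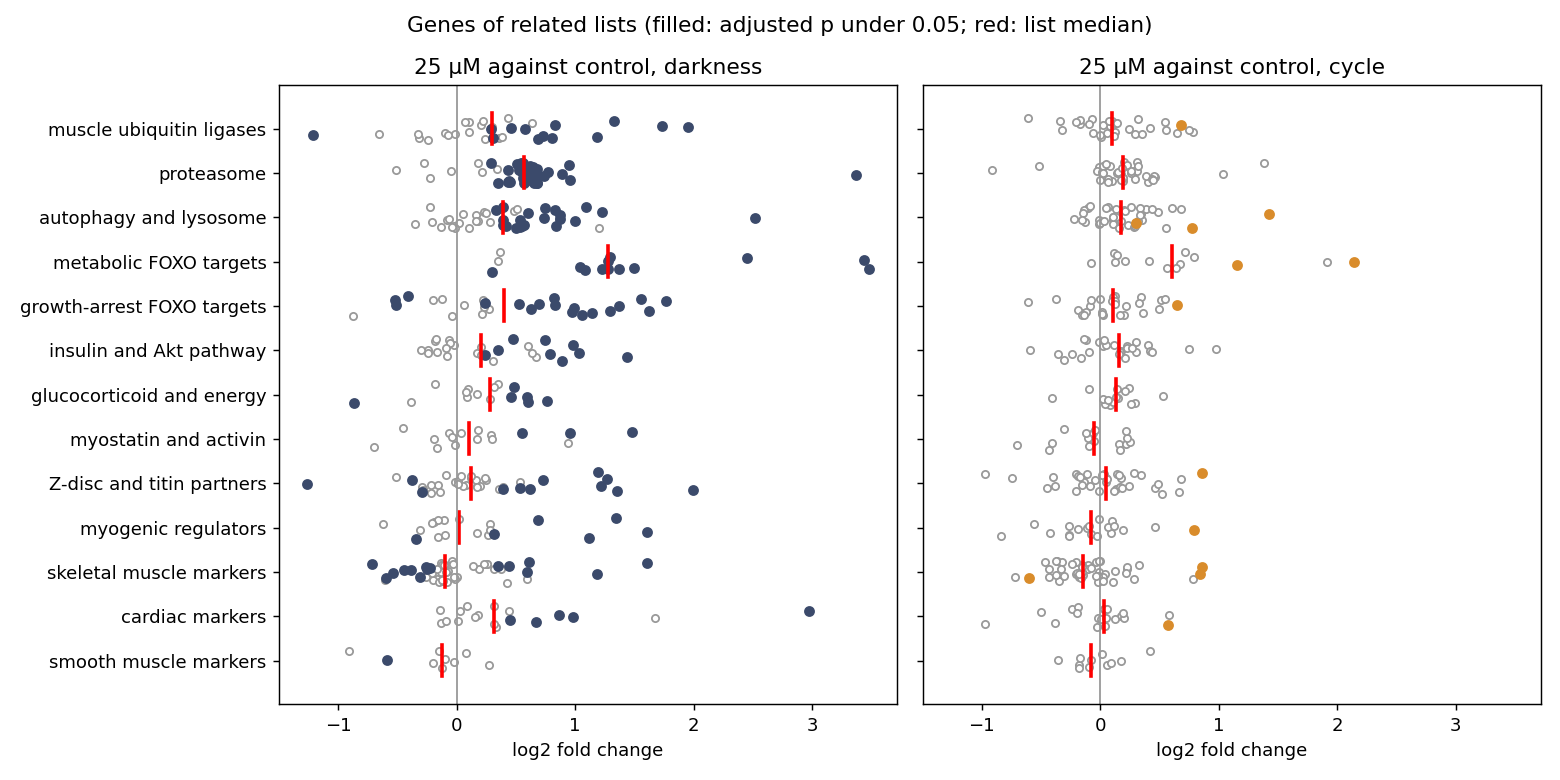
Log2 fold change at 25 µM (x axis) of each tested gene of 13 lists (rows) in darkness (left) and under the cycle (right); filled points passed an adjusted p of 0.05 (limma), open points did not, and red ticks are list medians. The proteasome and metabolic FOXO targets sit to the right of 0 in darkness, at medians of 0.57 and 1.28, and skeletal muscle markers on both sides of 0.

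Upstream of FOXO, the insulin and Akt list had 9 of 27 higher and none lower in darkness. The risers included the kinase sgk1 (1.44 ± 0.11, adjusted p = 4.04e-06), the receptor substrates irs2b (1.03 ± 0.11, adjusted p = 4.79e-05) and irs2a (0.98 ± 0.11, adjusted p = 7.15e-05), and pdpk1a, the kinase that activates Akt (0.89 ± 0.14, adjusted p = 0.000828). Under the cycle 0 of 27 passed, with akt2 at 0.17 ± 0.068 and pik3r1 at −0.09 ± 0.093, and the effect on sgk1 was larger in darkness by 1.17 ± 0.26 (adjusted p = 0.0292). Of the myostatin and activin list 3 of 16 rose in darkness: the activin subunits inhbab (1.48 ± 0.25, adjusted p = 0.00118) and inhbaa (0.55 ± 0.14, adjusted p = 0.0124), and the activin-binding protein fstl3 (0.95 ± 0.16, adjusted p = 0.00124). Under the cycle 0 of 16 passed, with acvr1ba at −0.11 ± 0.096 and acvr2aa at −0.06 ± 0.073.

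Of the glucocorticoid and energy-sensing list 5 of 15 rose and 1 fell in darkness. The deacetylase sirt1 rose by 0.59 ± 0.10 (adjusted p = 0.00156), the coactivator ppargc1b by 0.48 ± 0.10 (adjusted p = 0.00458) and fkbp5, a glucocorticoid target that binds the receptor complex, by 0.60 ± 0.15 (adjusted p = 0.0108), while hsd11b1la fell by 0.86 ± 0.20 (adjusted p = 0.00879). The other risers, named after their values were seen, were the coactivator ppargc1a (0.76 ± 0.19, adjusted p = 0.0108) and klf9 (0.46 ± 0.14, adjusted p = 0.0328), a glucocorticoid-induced factor. Under the cycle 0 of 15 passed, with klf9 at 0.53 ± 0.22 and fkbp5 at 0.24 ± 0.22.

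Around tcap at the Z-disc, 9 of 38 genes rose and 3 fell in darkness (median 0.12). The risers included xirp1, an actin-binding protein (2.00 ± 0.15, adjusted p = 3.05e-06), the stretch-responsive ankrd1b (1.22 ± 0.12, adjusted p = 3.29e-05), the filamin C gene flnca (1.19 ± 0.13, adjusted p = 4.98e-05) and cavin4b (0.73 ± 0.10, adjusted p = 0.000307). The 3 that fell, named after their values were seen, were synpo2b (−1.26 ± 0.36, adjusted p = 0.0245) and the calcineurin-binding calsarcin genes myoz1b (−0.38 ± 0.12, adjusted p = 0.0393) and myoz1a (−0.29 ± 0.097, adjusted p = 0.0457). Titin itself did not pass, with ttn.1 at −0.29 ± 0.11 (adjusted p = 0.0759) and ttn.2 at −0.15 ± 0.079 (adjusted p = 0.189), both named after their values were seen as the binding partner of telethonin. Under the cycle 1 of 37 rose, ankrd1b (0.86 ± 0.15, adjusted p = 0.02). The effect was larger in darkness for xirp1 (1.33 ± 0.26, adjusted p = 0.00916) and cavin4b (0.67 ± 0.16, adjusted p = 0.0373). Of sarcomere chaperones 5 of 11 rose and 1 fell in darkness, led by the myosin chaperone hsp90aa1.1 (1.78 ± 0.14, adjusted p = 3.88e-06), with hspb7 (0.93 ± 0.13, adjusted p = 0.000286), hspb1 (0.95 ± 0.15, adjusted p = 0.000752) and hsp90aa1.2 (1.29 ± 0.33, adjusted p = 0.0132). The fifth was stub1 (0.31 ± 0.090, adjusted p = 0.0274), and the 1 that fell was the myosin methyltransferase and chaperone partner smyd1a (−0.32 ± 0.089, adjusted p = 0.0203), both named after their values were seen. Under the cycle 0 of 11 passed, with smyd1a at −0.20 ± 0.098 and dnajb6a at 0.07 ± 0.072.

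Muscle genes as such did not move in 1 direction. Of 48 skeletal muscle markers 6 rose and 9 fell in darkness (median −0.10), and the risers included the glycolytic pgam2 (1.60 ± 0.058, adjusted p = 1.62e-08) and eno3 (0.59 ± 0.071, adjusted p = 0.000114), the glycogen phosphorylase pygma (1.18 ± 0.13, adjusted p = 4.57e-05) and the calcium-store protein gene srl (0.61 ± 0.082, adjusted p = 0.000271). The 9 that fell, named after their values were seen, fell by 0.22 to 0.72 on the log2 scale. They were the troponin genes tnni2a.1 (−0.45 ± 0.096, adjusted p = 0.00535), tnni2a.3 (−0.72 ± 0.18, adjusted p = 0.0132) and tnnt3a (−0.25 ± 0.079, adjusted p = 0.035), the myosin-binding protein genes mybpha (−0.60 ± 0.12, adjusted p = 0.00289), mybpc1 (−0.26 ± 0.080, adjusted p = 0.0377) and mybpc2b (−0.31 ± 0.099, adjusted p = 0.0397), the AMP deaminase gene ampd1 (−0.38 ± 0.089, adjusted p = 0.00853), the tropomyosin gene tpm2 and the calcium release channel gene ryr1b. Under the cycle 2 rose, pgam2 (0.84 ± 0.10, adjusted p = 0.00223) and pygma (0.86 ± 0.15, adjusted p = 0.0197), and mybpc2b, a myosin-binding protein, fell by 0.60 ± 0.12 (adjusted p = 0.0347). The effect was larger in darkness for pgam2 (0.76 ± 0.12, adjusted p = 0.00181), srl (0.50 ± 0.11, adjusted p = 0.0274) and eno3 (0.37 ± 0.088, adjusted p = 0.0383). Of 19 myogenic regulators 5 rose and 1 fell in darkness, among them myod1 (1.12 ± 0.14, adjusted p = 0.000143), myf6 (1.34 ± 0.33, adjusted p = 0.0122), the fusion gene mymk (1.61 ± 0.39, adjusted p = 0.0102) and mef2d (0.32 ± 0.062, adjusted p = 0.00289). The others, named after their values were seen, were myog, which rose (0.69 ± 0.22, adjusted p = 0.0423), and dacha, which fell (−0.34 ± 0.091, adjusted p = 0.017). Under the cycle 1 rose, myf6 (0.79 ± 0.18, adjusted p = 0.0487).

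Markers of heart and smooth muscle were counted in the same comparisons, and neither summed level passed after adjustment. In darkness both sums had the smallest p that the test can give, with groups that do not overlap. Not passing is therefore no sign that these sums were unchanged. Of 18 cardiac markers 5 rose and none fell, among them atp2a2a (0.86 ± 0.10, adjusted p = 8.74e-05), tnnt2b (0.98 ± 0.15, adjusted p = 0.000723), the stretch hormone nppb (2.97 ± 0.71, adjusted p = 0.0101) and cmlc1 (0.45 ± 0.12, adjusted p = 0.0181). The size of the nppb rise depended on the setting, with log2 fold changes of 1.41 to 3.46 over 18 alternatives. The fifth, named after its value was seen, was the natriuretic peptide gene nppa (0.67 ± 0.18, adjusted p = 0.0207). Their sum over 21 entries was 346 to 378 FPKM in dark controls and 409 to 449 at 25 µM, a log2 difference of 0.22 (exact permutation test, p = 0.0286, adjusted p = 0.171). Of 9 smooth muscle markers 1 fell, acta2 (−0.59 ± 0.10, adjusted p = 0.00125), and their sum over 12 entries went from 218 to 260 FPKM in dark controls to 189 to 196 at 25 µM (log2 difference −0.32, exact permutation test, p = 0.0286, adjusted p = 0.171). Among them smtna was at 0 in all 24 libraries. Under the cycle 1 of 19 cardiac markers rose, atp2a2a (0.58 ± 0.11, adjusted p = 0.0242), and 0 of 11 smooth muscle markers passed, with acta2 at −0.35 ± 0.15 and tagln at −0.09 ± 0.15. The cycle sums ran from 388 to 477 FPKM in controls and 385 to 465 at 25 µM for cardiac markers, and from 208 to 244 and 156 to 248 for smooth muscle markers. The effect on tnnt2b was higher in darkness by 1.17 ± 0.24 (adjusted p = 0.0169). This exceeds its rise of 0.98 in darkness, so its log2 fold change under the cycle was negative, and it was not called there. Whether the heart or smooth muscle took part in the higher trim63a, fbxo32 and tcap was not tested.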

How the data were processed

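The submitters' processing notes name HISAT2 2.0.5 and featureCounts 1.5.0-p3. The authors deposited FPKM per gene in 2 tables of 32520 genes, 1 for each photoperiod, and all value columns were matched to the 24 samples. Build and annotation are not given in the sources used, and coordinates are those of the deposited tables. The library protocol names stranded and unstranded kits without saying which was used. The values were whole multiples of 1 fragment in 100% of cases (tolerance 0.001), which gave the depth.

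Values were analysed as log2(FPKM + 0.1) with limma 3.58.1 in R 4.3.3 (empirical Bayes, intensity trend), on genes with at least 0.5 FPKM in at least 4 libraries of the fit. P-values were adjusted by Benjamini-Hochberg at 0.05. Contrasts within a photoperiod used its 12 libraries, and differences between photoperiods all 24, where a constant offset between tables cancels. Marker sums were compared by exact permutation in scipy 1.17.1. The fit was also run on simulated data, with the same dispersion for every gene. Real genes need not share a dispersion, so nothing is read from that run. Figures were drawn with matplotlib 3.10.9.

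The 8 members and the 17 lists (420 of 438 entries matched) were chosen with earlier results of these data known. Named list genes are, per comparison, the up to 4 past the threshold by smallest adjusted p, and where no gene passed at 25 µM the 2 of highest level. Alternatives were a pseudocount of 1, no filter, the replicate number as a block, total-fragment scaling, limma-voom with TMM factors on fragment counts recovered from the deposited FPKM, only the groups compared, and each library left out.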

Additional observations from a re-analysis of the deposited data

Results flagged for a closer look

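In a group of 4 libraries, the dark 0.0025 µM group, 1 library lay far from the rest for fbxo32, at 27.8 FPKM against 5.09 to 8.53. It was the single such case among 60 group values examined for the 7 detected genes and the muscle marker sums, and chance flags about 5% of groups.

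The effect of 25 µM differed between the dark and the cycle libraries, by a test of the difference itself on the log2 scale, for the genes given here. Photoperiod and library series cannot be told apart in this difference. Over all genes 234 were called for it, and 125 without replicate 1 of the cycle 25 µM group. The members and the lists were chosen with earlier results of these data known. Of the 8 members trim63a had a difference of 2.82 (0.17 under the cycle and 2.98 in darkness), given as a description because it was chosen with such results known, and its call was lost with limma-voom. Among the ligases and signalling genes it differed for trim55a by 1.17, trim55b by 1.40, klhl41a by 1.09 and sgk1 by 1.17. Among genes listed as FOXO targets it differed for txnipa by 1.03, pmaip1 by 1.96, angptl4 by 1.14, g6pca.1 by 1.25 and igfbp1a by 2.04. In breakdown routes it differed for ctsd by 0.76 and psmd8 by 0.50. Among muscle genes it differed for xirp1 by 1.33, cavin4b by 0.67, pgam2 by 0.76, srl by 0.50, eno3 by 0.37 and tnnt2b by 1.17. All these effects were higher in darkness than under the cycle, and that of trim55a includes a negative value under the cycle (−0.34, not called). For pmaip1 and tnnt2b too the difference exceeded the rise in darkness (1.77 and 0.98). Their log2 fold changes under the cycle were therefore negative, and neither was called there. Over all genes 196 were called higher in darkness and 38 lower, but 121 and 108 with total-fragment scaling. The balance of directions thus depends on scaling. The calls of cavin4b, eno3, pmaip1, psmd8, sgk1 and srl were each lost in at least 1 alternative.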

How the results depend on the processing

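Alternatives were run for the members and for the list genes named by the rule above, up to 4 a list and comparison. List genes named after their values were seen were not put through them, so the stability of their calls is not known. No called value among those run changed direction in any alternative. The alternatives reuse the same libraries, and the members and lists were chosen with earlier results known. A call that holds is therefore no independent support. At 25 µM in darkness the calls of trim63a, fbxo32, tcap and foxo1a held in all 18 alternatives, and 54 of the 58 list genes named by the rule held. Those lost somewhere were capn2b, capn3a, cmlc1 and foxo4. Under the cycle 2 of 14 held, and for the difference between photoperiods 11 of 17. There psmd8 was lost in 25 of 29 alternatives, eno3 in 18, cavin4b in 12, sgk1 in 11, srl in 7 and pmaip1 in 4. With only the groups compared, 25 µM under the cycle gave 109 genes and 0 members, and 25 against 0.0025 µM 192 genes and 0 members. Without a filter the cycle gave 1 member. For the 0.0025 µM difference between photoperiods the genes called were 0 with a pseudocount of 1, 2 without a filter, 2 with total-fragment scaling and 0 with limma-voom, which also gave 0 genes for 0.0025 µM in darkness and 0 members for the 25 µM difference.

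Same-numbered replicates did not deviate together (correlations −0.0974 to 0.0288 in darkness, −0.118 to 0.113 under the cycle, 1 of 12 over 0.1). With the replicate number as a block, genes called were 162 and members 0 for 25 µM under the cycle, 234 genes for 25 against 0.0025 µM there, 147 for the 25 µM difference between photoperiods and 1 for 0.0025 µM in darkness.

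Leaving out each library gave 3139 to 4399 genes and 4 to 5 members at 25 µM in darkness, 3 to 7 genes at 0.0025 µM, and 3005 to 4294 genes and 4 to 5 members between the doses. Under the cycle it gave 70 to 764 genes and 0 to 2 members at 25 µM, 0 to 1 gene at 0.0025 µM, and 160 to 655 genes and 0 to 2 members between the doses. The difference between photoperiods gave 125 to 482 genes and 1 to 2 members at 25 µM, and 1 to 10 genes at 0.0025 µM. Without replicate 1 of the cycle 25 µM group the cycle counts were 764 and 655 genes. Without replicate 1 of the dark 25 µM group 394 genes and 2 members were called for the difference. Marker sums without 1 library could not pass, since 3 against 4 allows no smaller p than 0.0571, so they say nothing on stability. The causes were not tested. Low counts limit trim63a in controls and foxo1b throughout.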
